A study of Homo sapiens with 24 samples.

Results

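A set of 10 genes of the BCL2 family, out of 60668 rows of the count table, was followed in MCF-10A cells, an immortalised, non-tumorigenic human mammary epithelial line, grown as 3D cultures on Matrigel. They were chosen by name. The pro-survival genes were BCL2, BCL2L1 (BCL-xL) and MCL1, the BH3-only genes were BCL2L11 (BIM), BMF, BBC3 (PUMA), PMAIP1 (NOXA), BIK and BID, and the effector gene was BAK1 (BAK). All 10 passed the filter on low counts and were tested. RNA was sequenced from MCF-10A cells with the genotype MYC.ER, called MYC-ER below, in which the MYC transcription factor is joined to the ligand-binding part of the oestrogen receptor, and from parental MCF-10A cells without the fusion. Both lines were given 1 µM 4-hydroxytamoxifen (4-OHT), the ligand that releases the fusion protein, for 0, 8, 24 or 48 h before collection. All cultures were collected on day 5, with the longest treatment begun on day 3, so the 0 h cultures had the same time in Matrigel and no 4-OHT. Each of the 8 groups had 3 libraries, 24 in all. The promoter that drives the fusion, and whether the line was 1 clone, are not given in the sources used here. The replicates are not stated to be separate cultures beyond triplicate seeding, so p-values measure the spread between these samples, which may be technical.

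Proteins of this family set whether the outer mitochondrial membrane stays intact. The pro-survival proteins hold the effectors BAK and BAX in check, the BH3-only proteins bind the pro-survival proteins or the effectors directly, and open effector pores release cytochrome c. BIM and BMF are both tied to the loss of matrix contact in mammary epithelial cells: the clearing of cells from the centre of MCF-10A spheroids is delayed when either is depleted, and BMF is held at the cytoskeleton until detachment or stress. RNA amounts say nothing of that binding, and counts per gene do not separate isoforms such as BCL-xL and BCL-xS. In bulk RNA, fewer cells with a transcript and less of it per cell cannot be told apart.

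The libraries held 136860029 to 182438505 counts each. Levels are given as CPM, counts scaled to a common total with TMM factors, and a count of 0 would allow up to 0.0164 to 0.0219 CPM, taking 3 counts as the limit and covering counting error only. MYC itself, whose counts cannot separate the native gene from the fusion, had mean levels of 387, 795, 321 and 248 CPM in MYC-ER in order of time, and of 463 to 532 CPM in the 4 parental groups. The basal epithelial markers KRT5, KRT14 and KRT17 had 6760 to 14100, 603 to 10900 and 313 to 3440 CPM. The 7 basal markers summed to 10600 to 17300 CPM in MYC-ER libraries and to 19300 to 30200 CPM in parental libraries. Of the luminal markers, KRT18 (91.2 to 520 CPM), KRT8 (40.6 to 227 CPM), GATA3 (8.32 to 19.5 CPM) and EPCAM (1.73 to 77.8 CPM) were found in every library, ESR1 had at most 96 counts and PGR had none. Of the leukocyte and endothelial markers, CD68 had 4.20 to 23.6 CPM, PTPRC at most 2 counts, and CD3E and CDH5 none. Mitochondrially encoded genes took 9.24 to 9.71% of counts in the MYC-ER 0 h libraries, 5.61 to 6.78% in the other MYC-ER libraries and 3.86 to 7.78% in parental libraries. Parental 0 h replicate 2 stood apart from the other 2 parental 0 h libraries for several of the genes below. Values without it are given where a call depends on it. Replicate 3 was the highest of the group for BIK and BID, and replicate 1 had the lowest mitochondrial share (3.86%). In every pair of these libraries the chi-square of counts per degree of freedom was 173 to 285. It was 8.93 to 68.8 for pairs within the other groups. The tests pool the spread over groups, so SEs of comparisons with parental 0 h may be too small.

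Before 4-OHT, MYC-ER cultures held much more BMF and BIM RNA and much less BCL2 RNA than parental cultures. At 8 h of 4-OHT, BMF fell to 20 to 29 counts per library, BIM and BBC3 fell, and BCL2, MCL1, PMAIP1, BID and BAK1 rose. BMF, BIM and BBC3 had climbed again by 48 h, BBC3 to above its starting level. Per kilobase of exon, MCL1 had the highest CPM of the 10 genes and BAK1 the second highest in all 8 groups. The lowest CPM per kilobase was that of BCL2 in both lines at 0 and 48 h and that of BMF in both lines at 8 and 24 h.

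The promoters of 3 genes are shown, those of the 3 BH3-only genes whose RNA fell at 8 h in MYC-ER cells. Each is a 300-base RefSeq window (GRCh38.p14), written 5′ to 3′ on the gene's strand and running from 250 bases before the annotated start to 50 after it. Capitals mark the FOXO element GTAAACA, the sequence bound by FOXO factors, in BCL2L11 and the E-box CACGTG, the sequence bound by MYC with MAX, in BBC3.
BCL2L11, chr2:111120664-111120963, plus strand: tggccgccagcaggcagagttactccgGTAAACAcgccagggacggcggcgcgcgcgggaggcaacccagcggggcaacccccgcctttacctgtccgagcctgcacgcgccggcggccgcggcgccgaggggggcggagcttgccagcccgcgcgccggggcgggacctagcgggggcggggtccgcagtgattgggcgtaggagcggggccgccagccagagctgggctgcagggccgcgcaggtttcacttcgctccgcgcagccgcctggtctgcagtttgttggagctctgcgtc
BMF, chr15:40108830-40109129, minus strand: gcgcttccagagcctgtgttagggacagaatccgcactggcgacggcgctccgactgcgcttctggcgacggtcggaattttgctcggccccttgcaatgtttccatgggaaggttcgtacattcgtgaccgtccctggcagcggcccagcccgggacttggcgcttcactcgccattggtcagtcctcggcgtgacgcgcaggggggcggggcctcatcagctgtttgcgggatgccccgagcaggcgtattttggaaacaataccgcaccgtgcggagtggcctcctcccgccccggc
BBC3, chr19:47232618-47232917, minus strand: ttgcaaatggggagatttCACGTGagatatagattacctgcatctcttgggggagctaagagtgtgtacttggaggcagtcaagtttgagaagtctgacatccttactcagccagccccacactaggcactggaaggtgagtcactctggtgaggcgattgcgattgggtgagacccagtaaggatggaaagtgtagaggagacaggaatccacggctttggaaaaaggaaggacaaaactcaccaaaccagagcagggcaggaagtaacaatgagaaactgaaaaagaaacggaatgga
Both strands of 35116 promoter windows of this length were searched for exact matches, and the table held 14 windows for 8 of the 10 genes, MCL1 and BIK being the other two. The E-box CACGTG was in 7.26% of all windows and in 3 of the 14, which belonged to BBC3 and BID. The BID windows with it overlap and hold the same site, so that site was counted more than once. The FOXO element GTAAACA was in 3.42% of all windows and in 1 of the 14, the one printed for BCL2L11. Neither was found in the BMF windows. The GC box GGGCGG, the sequence bound by SP1, was in 44.95% of all windows and in 9 of the 14, overlapping BID windows included. The TATA sequence TATAAA was in 11.53% of all windows and in 1 of the 14, a BCL2L1 window. A match says only that these letters are in the window.

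BMF (ENSG00000104081.14, GRCh38 chromosome 15, 40087890 to 40108892, minus strand) encodes a BH3-only protein that binds a dynein light chain and, once freed, pro-survival proteins. Its level in MYC-ER cells was 39.2, 38.8 and 41.7 CPM at 0 h, 0.166, 0.206 and 0.133 CPM at 8 h, 1.81, 1.91 and 2.29 CPM at 24 h, and 15.6, 15.3 and 15.1 CPM at 48 h. In parental cells it was 2.28, 2.15 and 2.05 CPM at 0 h, 0.742, 0.633 and 0.488 CPM at 8 h, 1.39, 1.10 and 1.28 CPM at 24 h, and 1.45, 1.64 and 1.67 CPM at 48 h. All 3 MYC-ER libraries at 8 h lay below every other library, with 20 to 29 counts against 6751 to 7147 at 0 h, and none of the 4 MYC-ER groups overlapped another MYC-ER group. Against 0 h in MYC-ER cells the log2 change was -7.89 at 8 h (SE 0.17, adjusted p = 8.2e-20), a 236-fold fall, then -4.32 at 24 h (SE 0.13, adjusted p = 2.15e-17) and -1.38 at 48 h (SE 0.12, adjusted p = 2.05e-09). From 8 to 24 h BMF rose by 3.57 (SE 0.16, adjusted p = 2.45e-14), and from 24 to 48 h by 2.94 on the log2 scale (SE 0.12, adjusted p = 2.09e-14). These and all later adjusted p-values come from edgeR's quasi-likelihood test with Benjamini-Hochberg adjustment over the 22158 genes tested in a comparison. Its antisense neighbour BMF-AS1 shares exon bases with it, and whether counting used strand is not given in the sources used here.

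BCL2L11 (ENSG00000153094.23, chromosome 2, 111119378 to 111168447, plus strand) encodes BIM, which binds all the pro-survival proteins and can activate BAK and BAX. Its MYC-ER levels were 65.7, 65.3 and 64.9 CPM at 0 h, 26.6, 26.8 and 25.4 CPM at 8 h, 36.7, 35.1 and 34.9 CPM at 24 h, and 50.7, 49.4 and 47.6 CPM at 48 h. Parental levels were 18.6, 23.7 and 18.1 CPM at 0 h, 18.2, 19.1 and 17.7 CPM at 8 h, 22.1, 19.8 and 20.8 CPM at 24 h, and 24.5, 25.1 and 25.8 CPM at 48 h. The 4 MYC-ER groups did not overlap each other, and the lowest of them, at 8 h, overlapped the highest parental group, at 48 h. BIM fell by 1.31 on the log2 scale at 8 h (SE 0.072, adjusted p = 4.59e-13) and was still lower than at 0 h at 24 h (log2 change -0.88, adjusted p = 4.7e-10) and at 48 h (log2 change -0.41, adjusted p = 6.65e-05). The non-coding gene MIR4435-2HG overlaps exon bases of BCL2L11 on the other strand, and its mean MYC-ER levels were 0.184, 4.80, 2.43 and 2.12 CPM in order of time. It moved in the opposite direction to BIM at 8 h.

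Among markers of other cell types, those of fibroblasts were high in the same MYC-ER 0 h libraries. The summed level of 7 such markers was 370 to 377 CPM in MYC-ER 0 h libraries, 102 to 109 CPM at 8 h, 79.9 to 91.8 CPM at 24 h and 121 to 130 CPM at 48 h, and 77.3 to 133 CPM in parental libraries. COL1A1 and DCN carried that sum, while the defining markers COL1A2, COL3A1 and PDGFRA had at most 9, 2 and 10 counts in any library. The 7 luminal markers summed to 232 to 249 CPM in MYC-ER at 0 h, 635 to 682 CPM at 8 h, 468 to 480 CPM at 24 h and 482 to 510 CPM at 48 h, against 259 to 438 CPM in parental libraries. The leukocyte and endothelial markers, carried by CD68, summed to means of 16.8, 22.9, 7.70 and 6.05 CPM in MYC-ER in order of time, and to 8.44 to 21.8 CPM in parental libraries. The part of these marker shifts, and of the mitochondrial share given above, in the changes of BMF, BIM and the other 8 genes was not tested.

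BBC3 (ENSG00000105327.17, chromosome 19, 47220822 to 47232766, minus strand) encodes PUMA, a p53 target that binds all the pro-survival proteins. Its MYC-ER levels were 10.7, 9.13 and 9.85 CPM at 0 h, 1.67, 1.92 and 1.57 CPM at 8 h, 7.33, 7.48 and 7.01 CPM at 24 h, and 18.4, 18.1 and 18.7 CPM at 48 h. Parental levels were 5.70, 4.08 and 5.70 CPM at 0 h and lay between 3.14 and 4.40 CPM in the 9 later libraries. The 4 MYC-ER groups did not overlap, the 8 h group being the lowest and the 48 h group the highest of all 8. The log2 change was -2.53 at 8 h (SE 0.12, adjusted p = 2.46e-14), then -0.45 at 24 h (SE 0.11, adjusted p = 0.00118) and 0.90 at 48 h (SE 0.11, adjusted p = 5.97e-07). Thus BBC3, unlike BMF and BIM, was above its 0 h level at 48 h.

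PMAIP1 (ENSG00000141682.11, chromosome 18, 59899948 to 59904306, plus strand) encodes NOXA, which binds MCL1. Its MYC-ER levels were 3.17, 2.88 and 2.67 CPM at 0 h, 8.31, 8.16 and 7.92 CPM at 8 h, 7.39, 6.03 and 6.79 CPM at 24 h, and 7.23, 7.91 and 6.98 CPM at 48 h. Every later library was above every 0 h library, with log2 changes of 1.48 at 8 h (SE 0.11, adjusted p = 6.69e-11), then 1.21 at 24 h and 1.34 at 48 h. The step from 8 to 24 h (-0.27, adjusted p = 0.0352) lost its call without any 1 of 6 libraries: MYC-ER 24 h replicates 2 and 3, each MYC-ER 8 h replicate, and parental 8 h replicate 1. The same held with library size, upper-quartile factors or a filter of 10 counts in every library.

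BIK (ENSG00000100290.3, chromosome 22, 43110748 to 43129712, plus strand), a BH3-only protein of the endoplasmic reticulum, showed no called change at 8 or 24 h. It had 8.33, 7.21 and 7.94 CPM at 0 h, and the log2 change was 0.09 at both 8 and 24 h, with a 95% interval of -0.14 to 0.33 at each. At 48 h its levels of 11.7, 12.6 and 12.0 CPM were above all other 21 libraries, a log2 change of 0.63 (SE 0.11, adjusted p = 7.15e-05). BID (ENSG00000015475.18, chromosome 22, 17734138 to 17774770, minus strand), which caspase-8 cleaves to link death receptors to mitochondria, had 21.0, 19.7 and 21.9 CPM at 0 h and 32.3, 28.9 and 30.1 CPM at 8 h. Its later levels were 14.0, 14.0 and 12.3 CPM at 24 h and 14.6, 15.9 and 16.1 CPM at 48 h. BID thus rose by 0.54 on the log2 scale at 8 h (adjusted p = 1.87e-05) and was below its 0 h level at 24 h (-0.64, adjusted p = 3.03e-06) and again at 48 h (-0.43, adjusted p = 0.000614).

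**Figure D1:**
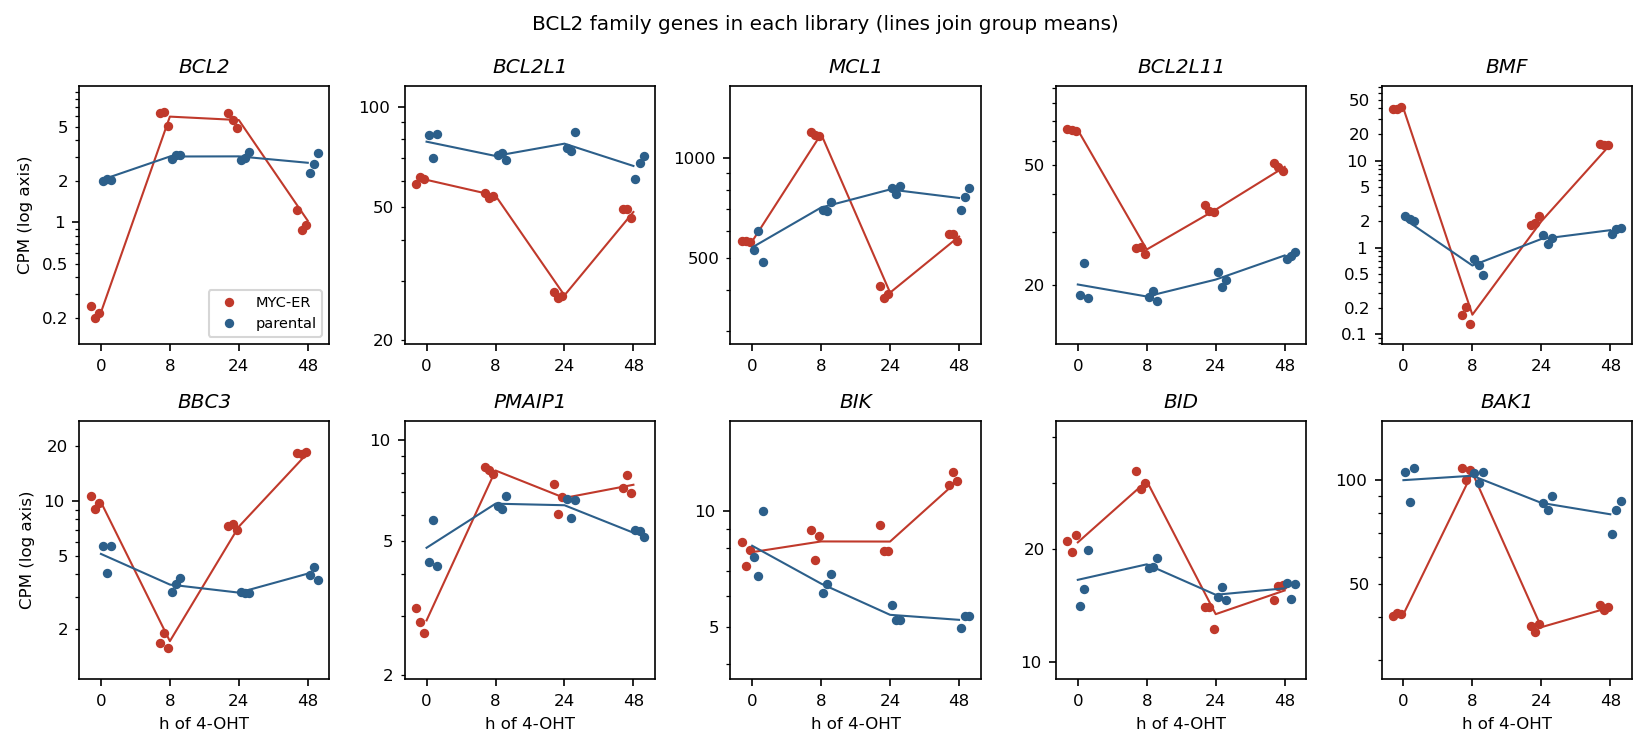
Level of each of the 10 genes in every library, in CPM on a log axis whose range differs between panels, against hours of 4-OHT. Points are the 3 libraries of a group and lines join group means. BMF in MYC-ER cells drops from 38.8 CPM or more at 0 h to 0.206 CPM or less at 8 h.

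BCL2 (ENSG00000171791.13, chromosome 18, 63123346 to 63320128, minus strand), the founding pro-survival gene, was nearly silent in MYC-ER cells at 0 h, with 0.244, 0.198 and 0.216 CPM, or 35 to 42 counts. It reached 6.37, 6.45 and 5.04 CPM at 8 h and 6.32, 5.61 and 4.93 CPM at 24 h, then stood at 1.23, 0.885 and 0.965 CPM at 48 h. The parental levels were 2.01, 2.07 and 2.04 CPM at 0 h and 2.31 to 3.30 CPM in the 9 later libraries. The MYC-ER 8 and 24 h libraries therefore lay above every parental library, and the MYC-ER 0 and 48 h libraries below every parental library. BCL2 rose by 4.76 on the log2 scale at 8 h (SE 0.17, adjusted p = 2.37e-16), a 27.1-fold rise, and was higher by 4.67 at 24 h (SE 0.17, adjusted p = 3.23e-16) and by 2.23 at 48 h (SE 0.16, adjusted p = 1.79e-10). Between 24 and 48 h it fell by 2.45 (SE 0.15, adjusted p = 4.92e-12).

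MCL1 (ENSG00000143384.13, chromosome 1, 150574551 to 150579738, minus strand), whose short-lived protein sequesters BIM, NOXA and BAK, had 560, 563 and 558 CPM at 0 h and 1196, 1176 and 1167 CPM at 8 h in MYC-ER cells. Its levels were 411, 378 and 389 CPM at 24 h and 588, 589 and 561 CPM at 48 h. The 8 h libraries were the highest of all 24 and the 24 h libraries the lowest. The log2 change was 1.07 at 8 h (SE 0.065, adjusted p = 2.1e-12) and -0.51 at 24 h (adjusted p = 3.8e-07), and at 48 h it was 0.05, with an interval of -0.09 to 0.18. With library size in place of TMM the 48 h value was 0.21 and past the threshold. ADAMTSL4-AS1 shares exon bases with MCL1 on the same strand, so reads there cannot be assigned to 1 gene.

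BCL2L1 (ENSG00000171552.13, chromosome 20, 31664452 to 31723989, minus strand) encodes BCL-xL and the shorter, opposing BCL-xS. Its MYC-ER levels were 58.8, 61.7 and 60.7 CPM at 0 h, 55.2, 53.3 and 54.0 CPM at 8 h, 27.8, 26.7 and 27.1 CPM at 24 h, and 49.3, 49.5 and 46.3 CPM at 48 h. The 24 h libraries were the lowest of all 24, and BCL2L1 was lower than at 0 h at 24 h (log2 change -1.15, SE 0.065, adjusted p = 9.27e-13) and at 48 h (log2 change -0.32, adjusted p = 0.000298). The 8 h difference of -0.16 (adjusted p = 0.0352) lost its call with DESeq2's test, with DESeq2's size factors, with no filter on low counts, and without any 1 of 7 libraries. Those libraries were replicates 2 and 3 of MYC-ER at 0, 8 and 24 h and parental 8 h replicate 1.

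BAK1 (ENSG00000030110.13, chromosome 6, 33572547 to 33580293, minus strand) encodes BAK, which forms pores in the outer mitochondrial membrane. In MYC-ER cells it had 40.3, 41.2 and 41.0 CPM at 0 h, 108, 100 and 107 CPM at 8 h, 37.6, 36.4 and 38.4 CPM at 24 h, and 43.4, 42.1 and 42.8 CPM at 48 h. The rise at 8 h was 1.36 on the log2 scale (SE 0.075, adjusted p = 4.98e-13) and brought BAK1 into the range of parental cells at 0 and 8 h, 86.2 to 108 CPM. Against 0 h the values of -0.12 at 24 h (interval -0.28 to 0.03) and 0.07 at 48 h (interval -0.09 to 0.22) did not pass the threshold, although the 0 h replicates overlapped neither group. At 24 h it passed (-0.09) with only the groups compared fitted, and at 48 h (0.23) with library size in place of TMM.

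Counted together, 5 of the 10 genes were higher and 4 lower at 8 h in MYC-ER cells, against 67.6% of all 22158 genes called in either direction, 32.2% higher and 35.4% lower. At 24 h 2 were higher and 6 lower (61.6% of all genes called, 30.4% higher and 31.2% lower), and at 48 h 4 were higher and 4 lower (44.1% called, 23.4% higher and 20.7% lower). Replicate values did not overlap between the groups for 9 of the 10 genes at each time, against 73.5%, 70.7% and 62.3% of all genes at 8, 24 and 48 h. The median log2 change of the 10 genes was 0.32, -0.48 and 0.06 at 8, 24 and 48 h, beside -0.10, -0.02 and 0.03 over all genes. With library size in place of TMM the all-gene medians were -0.193, 0.094 and 0.191, and with upper-quartile factors the one at 8 h was -0.242. These 3 comparisons share the MYC-ER 0 h libraries. From 8 to 24 h, 3 of the 10 were higher and 5 lower (55.5% of all genes called, 28.4% higher and 27.1% lower), and 8 did not overlap (65% of all genes). From 24 to 48 h, 7 were higher and only BCL2 was lower (53.7% called, 28.2% higher and 25.5% lower), and 9 did not overlap (68%). Of these, BAK1 (0.19, adjusted p = 0.035) lost its call without any 1 of 7 libraries, which were each of the MYC-ER 24 and 48 h libraries and parental 8 h replicate 1. It also lost the call with DESeq2, with the GC trend removed and with no filter. BID, at 0.21 (adjusted p = 0.0599), gained one without MYC-ER 48 h replicate 1, parental 0 h replicate 1 or parental 0 h replicate 3. It also gained one under 5 other settings, which were the GC trend removed, at least 10 counts in every library, library size, upper-quartile factors and only the groups compared.

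**Figure D2:**
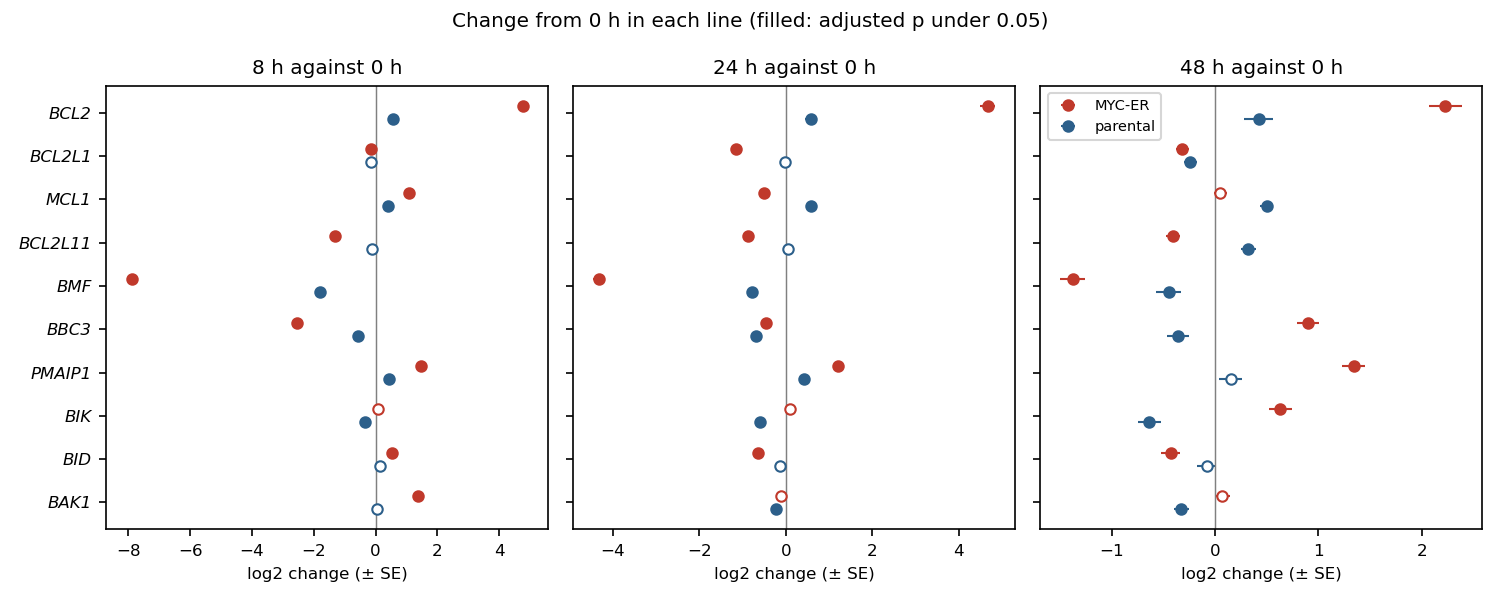
Log2 change against 0 h of the same line (x axis) at 8, 24 and 48 h of 4-OHT for the 10 genes (y axis), with bars of 1 SE. Filled points passed an adjusted p of 0.05, and axis ranges differ between panels. The largest fall is that of BMF at 8 h in MYC-ER cells, -7.89, and the largest rise that of BCL2, 4.76.

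In parental cells, which were given the same 4-OHT without the fusion, BMF also fell. Its log2 change at 8 h was -1.80 (SE 0.13, adjusted p = 1.21e-08), its 79 to 114 counts per library lying below the 344 to 377 at 0 h, and it was lower than at 0 h at 24 h (log2 change -0.78, adjusted p = 4.18e-05). MCL1 was higher at all 3 times, with log2 changes of 0.40, 0.58 and 0.50, as was BCL2 with 0.57, 0.58 and 0.42. PMAIP1 was higher at 8 h (0.44, adjusted p = 0.00388) and 24 h (0.42, adjusted p = 0.00287), and BIM at 48 h (0.32). BIK was lower at all 3 times, with -0.33, -0.60 and -0.64, as was BBC3 with -0.56, -0.70 and -0.36. BMF (-0.45) and BCL2L1 (-0.24) were lower at 48 h, and BAK1 at 24 h (-0.22) and 48 h (-0.33). With a trend on GC content removed the BBC3 values were -0.23, -0.26 and 0.04, the last not past the threshold, and BIK at 8 h was -0.18 and not past it. Across the 10 genes, 3 were higher and 3 lower at 8 h (31% of all genes called, 15% higher and 16% lower), 3 and 4 at 24 h (42.9%, 21.2% and 21.7%), and 3 and 5 at 48 h (40.5%, 20.4% and 20.1%). The groups did not overlap for 5, 6 and 5 of them, against 33.9%, 43.1% and 39% of all genes.

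The parental calls depended on the model and on single libraries. Fitted on the 2 groups alone, the comparisons at 8, 24 and 48 h called 2, 5 and 2 of the 10. Over all genes these fits called 5.37%, 20% and 11.5%. With a trend on GC content removed, 7, 6 and 3 of the 10 were called, beside 25%, 36.1% and 34.9% of all genes. Calls lost without 1 library were BIK at 8 h (without parental 0 h replicate 3, or 8 h replicate 1 or 2), BAK1 at 24 h (0 h replicate 1 or 3, or 24 h replicate 2), BCL2 at 48 h (0 h replicate 1 or 48 h replicate 3) and BBC3 at 48 h (0 h replicate 1 or 3, or 48 h replicate 3). Without parental 0 h replicate 2, calls were gained for BCL2L1 at 8 h (-0.22), BCL2L11 at 24 h (0.19) and PMAIP1 at 48 h (0.31). Without parental 0 h replicate 3 they were gained for BCL2L11 (-0.20) and BID (0.29) at 8 h, and without replicate 1 for BID at 24 h (-0.24). Calls kept under every alternative tried, leaving out each library included, were BCL2 and BMF at 8 h, BCL2, MCL1, BMF, BBC3 and BIK at 24 h, and MCL1 and BIK at 48 h.

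MYC-ER and parental cultures differed before any 4-OHT. At 0 h BMF was higher in MYC-ER by 4.21 on the log2 scale (SE 0.13, adjusted p = 3.42e-17), BIM by 1.70 (SE 0.073, adjusted p = 9.42e-15), BBC3 by 0.94 (adjusted p = 1.33e-07) and BID by 0.33 (adjusted p = 0.00316). BCL2 was lower, with a log2 difference of -3.21 (SE 0.16, adjusted p = 1.28e-13), as were BAK1 (-1.29, adjusted p = 1.73e-12), PMAIP1 (-0.72, adjusted p = 5e-06) and BCL2L1 (-0.38, adjusted p = 2.06e-05). MCL1 differed by 0.06 (interval -0.07 to 0.20) and BIK by -0.06 (interval -0.29 to 0.18). The MCL1 difference was 0.15 and past the threshold without parental 0 h replicate 2, and BID was not past it when only the 2 groups were fitted. The 4 higher and 4 lower genes stand beside 64.3% of all genes called, 31.6% higher and 32.7% lower, and 7 of the 10 did not overlap (65% of all genes).

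At 8 h the order of the lines was reversed for BMF, BBC3, BCL2 and PMAIP1. BMF was then lower in MYC-ER (log2 difference -1.88, SE 0.17, adjusted p = 5.02e-09), as was BBC3 (-1.03, adjusted p = 1.45e-07), and BCL2 was higher (0.97, adjusted p = 4.51e-06). PMAIP1 was higher by 0.33 (adjusted p = 0.014), a call lost without parental 8 h replicate 2 and with library size in place of TMM. BIM remained higher in MYC-ER at every time, by 0.52 at 8 h, 0.77 at 24 h and 0.97 at 48 h, each past the threshold. In all, 6 genes were higher and 3 lower at 8 h (48.6% of all genes called, 23.1% higher and 25.5% lower), and 9 did not overlap (60.8% of all genes).

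At 24 h BCL2L1 (-1.51, adjusted p = 3.98e-14), BAK1 (-1.20, adjusted p = 1.66e-11) and MCL1 (-1.03, adjusted p = 1.56e-11) were below their parental levels in MYC-ER. BBC3 (1.20), BCL2 (0.88), BMF (0.67) and BIK (0.63) were above theirs, each past the threshold. At 48 h BMF (3.27), BBC3 (2.19), BIK (1.21) and PMAIP1 (0.47) were higher, each past the threshold. BCL2 (-1.41), BAK1 (-0.90), BCL2L1 (-0.46) and MCL1 (-0.39) were lower, also past it. There were 5 higher and 3 lower genes at 24 h (49.4% of all genes called, 23.5% higher and 25.8% lower) and 5 and 4 at 48 h (56.7%, 27.3% and 29.4%), and 9 did not overlap at either time (60.4% and 66.8% of all genes). BID at 24 h (-0.17, interval -0.37 to 0.02) gained a call without parental 0 h replicate 3.

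**Figure D3:**
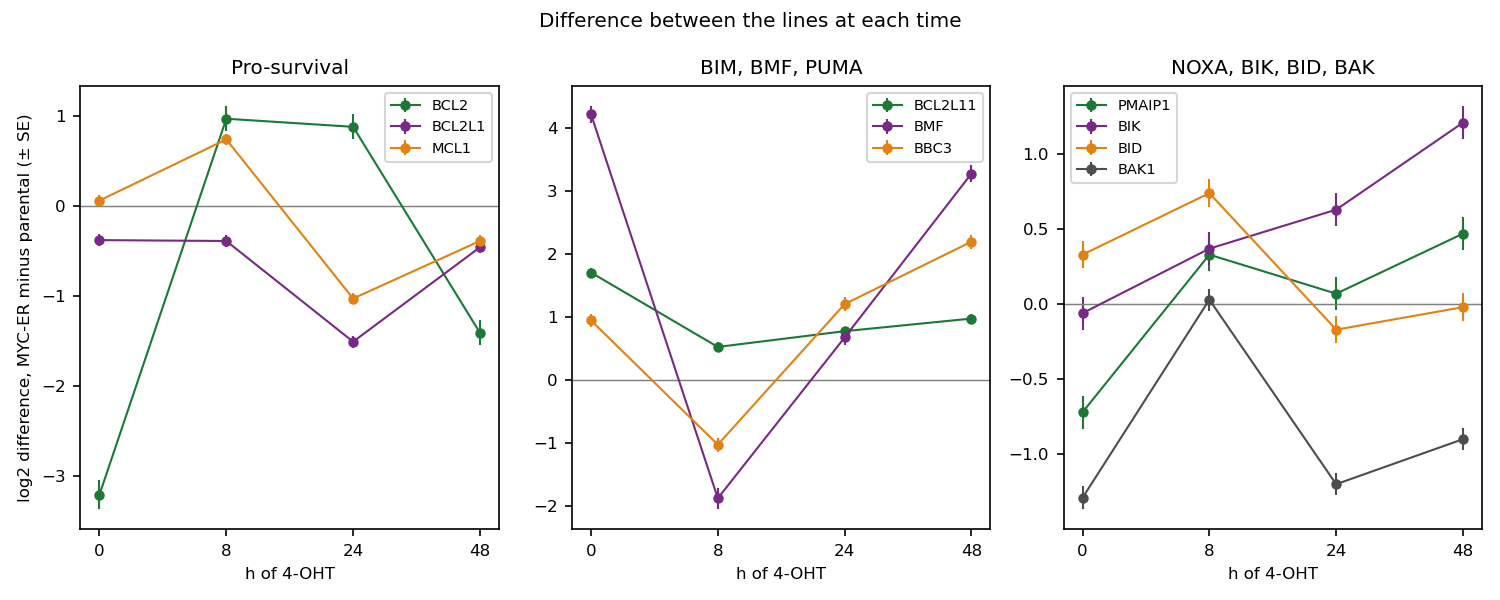
MYC-ER minus parental difference in log2 level (y axis) for the 10 genes at each time of 4-OHT, with bars of 1 SE. The 3 panels, with differing axis ranges, hold the pro-survival genes, then BCL2L11, BMF and BBC3, then PMAIP1, BIK, BID and BAK1. BMF goes from 4.21 at 0 h to -1.88 at 8 h and back to 3.27 at 48 h.

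The change in MYC-ER was then set against the change in parental cells at the same time, as an interaction of line and time. At 8 h, 9 of the 10 genes differed in response (55.2% of all genes called), with BMF at -6.09 (SE 0.21, adjusted p = 5.85e-16), BCL2 at 4.18 (SE 0.21, adjusted p = 3.5e-13), BBC3 at -1.97 (SE 0.16, adjusted p = 6.44e-10), BAK1 at 1.32 (SE 0.10, adjusted p = 5.37e-10) and BIM at -1.18 (SE 0.10, adjusted p = 1.81e-09). The value for BCL2L1 was -0.01 (interval -0.21 to 0.18). It was -0.23 and past the threshold with the GC trend removed. At 24 h 8 of the 10 differed (54.5% of all genes called), among them BCL2L1 at -1.13 (adjusted p = 6.86e-10) and MCL1 at -1.09 (adjusted p = 1.12e-09). At 48 h 9 of the 10 differed (45% called), among them BIK at 1.27 and BBC3 at 1.25 (adjusted p = 1.19e-06 for each). The BIK value at 8 h (0.42, adjusted p = 0.027) lost its call without any 1 of 5 libraries: MYC-ER 0 h replicate 2, 8 h replicates 1 and 3, parental 0 h replicate 3 and parental 8 h replicate 1. The BID value at 48 h (-0.35, adjusted p = 0.0314) lost it without any 1 of 7, which were MYC-ER 0 h replicates 1 and 3, MYC-ER 48 h replicate 1, parental 0 h replicates 1 and 2, and parental 48 h replicates 1 and 3. The BBC3 value at 24 h (0.26, interval -0.07 to 0.59) became 0.40 and past the threshold without parental 0 h replicate 2.

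Ratios of 2 genes within a library do not depend on how libraries were scaled. They are ratios of counts, not per length, so only their movement between groups is read. The mean log2 ratio of BMF to BCL2L11 in MYC-ER in order of time was -0.71 ± 0.06, -7.28 ± 0.27, -4.16 ± 0.21 and -1.69 ± 0.03 (SD, n = 3 for each). BMF thus moved further than BIM in both directions. The ratio of BIM to MCL1, a BH3-only gene to a protector it binds, was -3.10 ± 0.01, -5.49 ± 0.03, -3.46 ± 0.03 and -3.56 ± 0.02 at the same times, against -5.27 to -4.74 in the parental group means. At 8 h it lay below the parental libraries at the same time, -5.37 to -5.18, and at the other times above all parental libraries. The ratio of BCL2 to BCL2L1 was -8.09 ± 0.18, -3.19 ± 0.20, -2.28 ± 0.16 and -5.57 ± 0.24, and that of BBC3 to PMAIP1 was 1.77 ± 0.11, -2.25 ± 0.14, 0.11 ± 0.17 and 1.32 ± 0.12, again for MYC-ER in order of time.

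**Figure D4:**
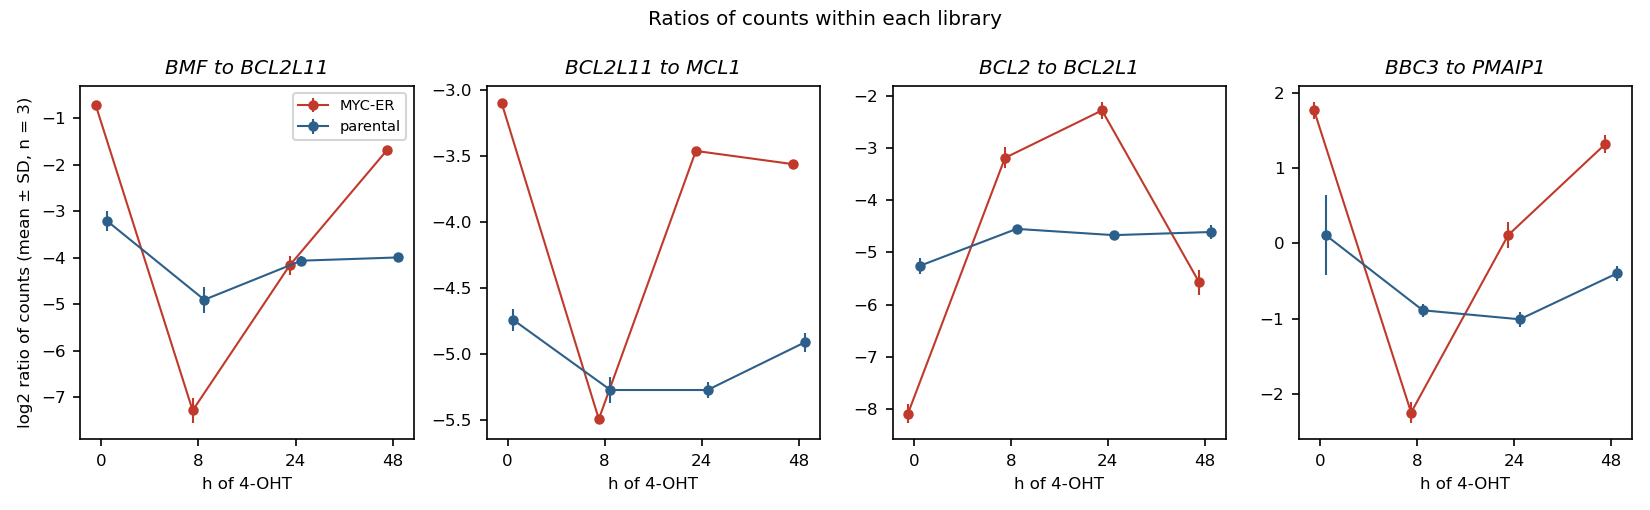
Within-library log2 ratios of counts of gene pairs (y axis) against hours of 4-OHT, mean ± SD of 3 libraries per group. The BMF to BCL2L11 ratio in MYC-ER cells drops from -0.71 at 0 h to -7.28 at 8 h.

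Over the 8 group means of log2 CPM, BMF ran with BBC3 (Pearson r = 0.90) and BIM (r = 0.81) and against BCL2 (r = -0.89), while BIM ran against BAK1 (r = -0.87). These describe 8 groups that share 2 cell lines, and carry no test. Among 10594 genes with at least 10 CPM in the highest group, the 4 whose pattern was most like that of BMF over the same 8 groups were DCAF8 (r = 0.997), HDAC6 (r = 0.993), FANCE (r = 0.992) and ABHD4 (r = 0.991). HDAC6, a deacetylase of tubulin, had mean levels of 77.0, 21.0, 41.2 and 66.8 CPM in MYC-ER in order of time. ABHD4 went from 56.9 to 4.52, 16.2 and 41.0 CPM. The range of these genes was narrower than that of BMF. A correlation reads the order and spacing of groups and not the size of the change. The 4 most like BIM were ZBTB18 (r = 0.995), ALDH6A1 (r = 0.989), RANBP10 (r = 0.989) and PAIP2B (r = 0.987). ALDH6A1, a mitochondrial enzyme of valine breakdown, had mean levels of 63.5, 13.9, 25.2 and 54.9 CPM at 0, 8, 24 and 48 h in MYC-ER, and 9.54 to 13.7 CPM in parental groups.

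Other genes of the pathway were taken from 7 lists holding 50 genes, 49 of them tested. In MYC-ER cells 15 were higher and 24 lower at 8 h, 16 and 23 at 24 h, and 6 and 25 at 48 h, with median log2 changes of -0.16, -0.15 and -0.17. Over all genes tested, 32.2% were higher and 35.4% lower at 8 h, 30.4% and 31.2% at 24 h, and 23.4% and 20.7% at 48 h, with medians of -0.10, -0.02 and 0.03. Of 10 transcription factors known to act on BH3-only genes, 9 were lower and 1 higher at 8 h, with a median of -1.25, beside 35.4% of all genes lower. At 24 h 2 were higher and 5 lower (median -0.50), and at 48 h 3 and 4 (median -0.15). In parental cells 0 were higher and 5 lower at 8 h, 2 and 5 at 24 h, and 3 and 3 at 48 h. The 1 that rose was E2F1, which drives S-phase genes, with mean levels of 0.574 CPM at 0 h and 9.43 CPM at 8 h and a log2 change of 4.04 (adjusted p = 1.02e-16). TP73, a p53 relative that can activate BBC3, fell from 19.4 to 0.438 CPM at 8 h (log2 change -5.47, adjusted p = 4.35e-18). FOXO3, whose product can activate BCL2L11, had mean levels of 349, 99.8, 92.6 and 152 CPM at 0, 8, 24 and 48 h, and was lower at 48 h than at 0 h (log2 change -1.21, adjusted p = 4.07e-10).

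Of 6 death receptor pathway genes, 4 were higher and 2 lower at 8 h, beside 67.6% of all genes called in either direction. At 24 h 0 were higher and 5 lower (61.6% of all genes called), and at 48 h 0 and 4 (44.1%). Among inhibitors of apoptosis, BIRC3 fell from a mean of 1118 CPM at 0 h to 243 CPM at 8 h (log2 change -2.20, adjusted p = 2.69e-15) and 82.5 CPM at 24 h (-3.76, adjusted p = 9.86e-19), and stood at 926 CPM at 48 h. BIRC5 (survivin), a protein of dividing cells, had 0.503 CPM at 0 h and 120.0 CPM at 24 h (log2 change 7.89, adjusted p = 6.64e-21), against 51.0 to 81.3 CPM in the parental groups. It was higher by 5.69 at 48 h (adjusted p = 2.78e-18). BCL2L10, a further pro-survival gene, was low throughout and fell from 2.57 CPM to 0.264 CPM at 8 h (log2 change -3.28, adjusted p = 1.31e-08) and 0.231 CPM at 24 h (-3.47). HRK, a BH3-only gene, fell from 1.84 CPM at 0 h to 0.253 CPM at 48 h (-2.86, adjusted p = 4.16e-06). BAX, the other effector, was higher at 24 h (0.57, adjusted p = 5.22e-06) and still at 48 h (0.63, adjusted p = 2.75e-06) and had a log2 change of 0.08 at 8 h (interval -0.10 to 0.26). In parental cells 15 of the 49 were higher and 11 lower at 8 h, 20 and 13 at 24 h, and 19 and 12 at 48 h. Over all genes the shares higher and lower were 15% and 16% at 8 h, 21.2% and 21.7% at 24 h, and 20.4% and 20.1% at 48 h.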

How the data were processed

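RNA was measured in 24 libraries, 3 in each of 8 groups taken from the labels. The authors deposited 1 table of whole-number counts per gene, not normalized, with 1 column per library. The submitters' processing notes name Trimmomatic 0.39, STAR, StringTie 2.1.3b and GRCh38, with no role or order. Per the labels' protocols, libraries were poly(A)-selected with a strand-specific kit. The annotation release, the strand setting and the handling of reads that match several genes are not given in the sources used here. If the counts came from StringTie coverage, they are estimates and limits based on 3 counts are approximate. Of 60668 identifiers 60340 were given a symbol, and 58502 had GC content and exon length from GENCODE v29. Gene coordinates also came from GENCODE v29, and promoters came from RefSeq (GRCh38.p14).

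Genes passing edgeR's filterByExpr (22158) were fitted after TMM scaling with edgeR 4.0.16 (R 4.3.3, limma 3.58.1) with 1 mean per group over all 24 libraries. The biological coefficient of variation common to all genes was 0.151. All 15 comparisons were tested with the two-sided quasi-likelihood F test, with Benjamini-Hochberg adjustment within each and a threshold of 0.05. Intervals are 95%, from the SE and a t quantile with 16 degrees of freedom, and are approximate. Group patterns used log2 CPM with a prior count of 2, and ratios an added count of 0.5. The procedure was tested on simulated data with known changes. The members, the lists and the rule for named genes were chosen with earlier results of these data known. The rule names all 10 members in every comparison. From the lists it names, at each MYC-ER time against 0 h, up to 4 genes with the largest change among those past the threshold, with at least 1 CPM in the higher group and no overlap of replicates. It also names the 4 genes most like BMF and BIM, and MYC. BAX was named in addition, after its values were seen, as the other effector. Replicate numbers come from the sample titles. The correlation of deviations between same-numbered libraries was over 0.1 in every pair for MYC-ER against parental at 0 h (0.11, 0.11 and 0.17). It was positive but not over 0.1 in every pair for parental 8 h against 0 h (0.06, 0.12 and 0.15), and of mixed sign or negative in each of the other comparisons of 2 groups. Replicate counts differed by more than sampling noise in every pair, so no library was counted as a copy. Alternatives were other scalings, filters, DESeq2 1.42.0, a GC trend removed, only the groups compared, a replicate block, and each library left out.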

Additional observations from a re-analysis of the deposited data

Results flagged for a closer look

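The response of MYC-ER cells differed from that of parental cells, by the test of the difference itself (edgeR's line by time interaction, adjusted p under 0.05), in 26 of the 30 values for the 10 genes. Over all genes the same test called 55.2% at 8 h, 54.5% at 24 h and 45% at 48 h. Each of the 30 values is the MYC-ER log2 change against 0 h minus the parental one. At 8 h the values were 4.18 for BCL2, 0.67 for MCL1, -1.18 for BCL2L11, -6.09 for BMF, -1.97 for BBC3, 1.05 for PMAIP1, 0.42 for BIK, 0.41 for BID and 1.32 for BAK1. At 24 h they were 4.10 for BCL2, -1.13 for BCL2L1, -1.09 for MCL1, -0.93 for BCL2L11, -3.53 for BMF, 0.79 for PMAIP1, 0.69 for BIK and -0.50 for BID. At 48 h they were 1.81 for BCL2, -0.45 for MCL1, -0.72 for BCL2L11, -0.93 for BMF, 1.25 for BBC3, 1.19 for PMAIP1, 1.27 for BIK, -0.35 for BID and 0.40 for BAK1. MCL1 and BID were on opposite sides of 0 at 8 h and at 24 h. The values of BIK and BID at 8 h and of BID and BAK1 at 48 h were not past the threshold under at least 1 other setting. The values at the 3 times share the 0 h libraries of both lines.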

How the results depend on the processing

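Each of the 150 values (10 genes in 15 comparisons) was recomputed under 9 other settings. A value not past the threshold in either fit was counted as an unchanged call even where its sign moved. All 150 calls were unchanged with a replicate block, which treats same-numbered libraries as pairs. With it 9 of the 10 genes were called at 8 h in MYC-ER cells, as without it, beside 67.2% of all genes. Calls were unchanged for 148 values with DESeq2's Wald test, 148 with DESeq2's size factors, 148 with at least 10 counts in every library, 146 with no filter, 143 with upper-quartile factors and 142 with library size alone. They were unchanged for 133 with the GC trend removed and for 133 with only the groups compared.

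Fitting only the groups compared left 2 of the 10 genes called in parental cells at 8 h (6 in the fit over all groups). It left 2 at 48 h (8 over all groups), and removing the GC trend left 3 at 48 h. Of all genes, 5.37% and 11.5% were called at 8 and 48 h with only the groups compared. In the fit over all groups these shares were 31% and 40.5%, and with the GC trend removed 34.9% were called at 48 h. Removing the GC trend changed the sign of BCL2L1 at 24 h (0.18, from -0.02) and of BAK1 at 24 h (0.05, from -0.22) and BBC3 at 48 h (0.04, from -0.36), all in parental cells. The cause was not tested. Leaving out each library, with the spread pooled over groups, changed 56 of 3600 calls and no sign of a called value. For a comparison of 2 groups most of the libraries left out were in neither group. The share changed therefore understates how far calls rest on single libraries of the groups compared. The number of the 10 genes called then ranged from 8 to 9 in MYC-ER at 8 h, was 8 at 24 and 48 h, and ranged from 5 to 7, 6 to 8 and 6 to 9 in parental cells at 8, 24 and 48 h. With all libraries kept, 67.6%, 61.6% and 44.1% of all genes were called in MYC-ER at 8, 24 and 48 h. In parental cells these shares were 31%, 42.9% and 40.5%. BCL2 at 0 h and BMF at 8 h in MYC-ER rested on 35 to 42 and 20 to 29 counts, so their folds are the least precise.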
